A study of Homo sapiens with 2 samples.

Results

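The genes of mitosis and the kinetochore were examined in SKOV3, an established human ovarian adenocarcinoma cell line, after suppression of RUNX2, a Runt-domain transcription factor. The members were 60 listed genes, picked by symbol. Their measured values were not used as a filter, but earlier results of these data were known when the list was made. Of the 60, 58 were found through the RefSeq accession of at least 1 array probe. They were represented by 77 of the 41000 different probes of the array. UBE2C, the ubiquitin-conjugating enzyme of the anaphase promoting complex, and SPC24, a subunit of the NDC80 complex, were not matched by this rule and were not analysed here. All 58 genes gave a signal well above background for both RNAs in both hybridizations.

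Total RNA of one stable clone carrying a RUNX2 short hairpin RNA (cl-sh3) was compared with RNA of one mock-transfected control clone. Both clones were made by lentiviral infection with the pLKO.1-puro vector and puromycin selection, and the vector of the control encoded a scramble sequence. Cyanine-labelled cRNA of both clones was mixed and hybridized to Agilent whole human genome arrays, once with cl-sh3 in Cy5 and the control in Cy3 (hybridization 1) and once with the dyes reversed (hybridization 2). The pair of hybridizations used the same RNAs on 1 slide and counts as 1 replicate, so no test between the clones was possible, no p-value is given, and the distance between the hybridizations shows technical error only. Each group is 1 clone, so an effect of RUNX2 suppression and a difference between individual clones cannot be told apart. RNA of a whole culture was measured, so fewer cells in mitosis and less of a transcript per cell cannot be told apart either.

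Median spot signals were between 451 and 902.5 in the 4 channels, over median local backgrounds of 43 to 166.5, and between 77.3% and 93.9% of the spots were called well above background. RUNX2 itself was lower in cl-sh3 at its brightest probe, with log2 ratios of cl-sh3 over control of -2.04 and -1.30 in hybridizations 1 and 2 and a mean of -1.67 (3.18-fold lower). A dimmer RUNX2 probe of the same accession gave 0.17 and -0.13, and a probe of another RUNX2 transcript gave -0.29 and -0.17, with the control not well above background in hybridization 2. All 10 markers of ovarian carcinoma epithelium had a probe above background in every channel. So had 4 of 4 fibroblast markers with a probe, 5 of 5 leukocyte markers and 3 of 4 endothelial markers. Being above background therefore did not separate the cell types. Raw signals of cl-sh3 in hybridization 1 ran from 480 (WT1) to 108807 (KRT18) for the epithelial markers, and up to 2419 (KDR) for the others.

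Mitosis divides the duplicated chromosomes between daughter cells. Cyclin-dependent kinase bound to cyclin B starts it, kinetochores assembled on the centromere capture spindle microtubules, and the spindle checkpoint holds back the anaphase promoting complex until every chromosome is attached. Securin and cyclin B are then destroyed, separase opens the cohesin rings, and the midzone directs cytokinesis. Many of these genes are transcribed together late in the cell cycle, through CHR elements and CCAAT boxes that are bound by the MuvB complex, together with B-Myb or FOXM1, and by NF-Y.

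The promoters of the members were therefore read for these motifs in the 250 bases before each gene start, on both strands, using RefSeq windows of GRCh38.p14. The table held 64 windows of 51 of the 60 listed genes. A CHR element (TTTGAA or TTCGAA) was found in 31 windows, or 48.4%, against 11.5% of the 18461 windows of all measured genes in the table and 14.3% of all 35116 windows. It lay wholly in the last 50 bases before the start in 21 of the member windows, or 32.8%, against 1.72% of the windows of measured genes. CCAAT was found in 45 member windows, or 70.3%, against 32.8% of the windows of measured genes and 32.0% of all windows. Both motifs stood in 25 member windows, or 39.1%, against 4.41% and 5.05%. The RUNX motif TGTGGT was found in 5 member windows, or 7.81%, against 8.94% of the windows of measured genes and 11% of all windows. A match describes these letters only and is not evidence of binding.

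The promoters of the 2 members with the highest mean ratio, INCENP and CKS2, and of the 2 with the lowest, CENPA and HMMR, are shown because they carry the same motifs at opposite ends of the range. All lie on the + strand of GRCh38.p14, INCENP at chr11:62123761-62124010, CKS2 at chr9:89310945-89311194, CENPA at chr2:26785806-26786055 and HMMR at chr5:163460382-163460631. Capitals mark CHR and CCAAT matches on either strand, and each sequence ends at the base before the gene start.
INCENP: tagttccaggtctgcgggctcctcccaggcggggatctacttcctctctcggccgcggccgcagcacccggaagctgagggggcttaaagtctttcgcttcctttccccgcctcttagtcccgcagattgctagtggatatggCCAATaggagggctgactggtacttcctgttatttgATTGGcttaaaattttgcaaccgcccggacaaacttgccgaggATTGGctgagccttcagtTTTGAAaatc
CKS2: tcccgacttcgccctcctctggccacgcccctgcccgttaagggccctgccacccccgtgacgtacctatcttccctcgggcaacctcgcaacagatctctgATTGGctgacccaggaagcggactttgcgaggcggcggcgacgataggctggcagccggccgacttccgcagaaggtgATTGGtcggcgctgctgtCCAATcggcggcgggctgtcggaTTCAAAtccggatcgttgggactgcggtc
CENPA: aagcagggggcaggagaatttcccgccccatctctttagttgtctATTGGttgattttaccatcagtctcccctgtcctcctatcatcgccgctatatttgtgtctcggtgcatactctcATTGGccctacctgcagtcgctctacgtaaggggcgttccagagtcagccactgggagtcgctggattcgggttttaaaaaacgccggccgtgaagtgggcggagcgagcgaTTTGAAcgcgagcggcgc
HMMR: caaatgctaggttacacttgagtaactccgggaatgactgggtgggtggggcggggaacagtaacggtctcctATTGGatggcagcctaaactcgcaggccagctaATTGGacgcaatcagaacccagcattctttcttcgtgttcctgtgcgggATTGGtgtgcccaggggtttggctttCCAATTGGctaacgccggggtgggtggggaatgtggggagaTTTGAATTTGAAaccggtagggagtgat
The INCENP and CKS2 windows each hold 1 CHR element and 3 CCAAT boxes, the CENPA window holds 1 and 2, and the HMMR window holds 2 adjacent CHR elements and 5 CCAAT boxes, 2 of them overlapping. In all of these windows a CHR element lies within the last 50 bases, and none holds the RUNX motif.

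Across the members, the differences between cl-sh3 and the control were mostly small and went in both directions. The log2 ratios of cl-sh3 over control, taken at the brightest probe of each gene, had a median of 0.08 over the 58 members, against 0.02 over the 28268 genes and unnamed transcripts measured. Mean ratios ran from -0.76 for HMMR to 1.11 for INCENP, with quartiles of -0.08 and 0.25. The mean was within 0.1 of 0 for 18 members. The members were more spread than all genes. The standard deviation of the mean ratios was 0.36 for the members and 0.29 for all genes, and the median of their absolute values was 0.20 and 0.12. The members were brighter than all genes measured, with a median log2 intensity of 12.38 against 9.46.

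Of the members, 26 were higher in cl-sh3 in both hybridizations (44.8%, against 30.3% of all genes measured), 14 were lower in both (24.1%, against 25.5%), and 18 had opposite signs. A log2 ratio of 0.322 or more was reached in both hybridizations by 7 members (12.1%, against 4.81%), and a log2 ratio of -0.322 or less by 3 (5.17%, against 6.19%). The 7 were INCENP, CKS2, MYBL2, SPC25, KIFC1, PTTG1 and CENPN, and the 3 were HMMR, CENPA and NEK2. At least 1.5-fold in both, 4 members were higher (6.90%, against 1.44%) and only HMMR was lower (1.72%, against 2.02%). The study's rule of 2-fold in both hybridizations was applied to the ratios computed here, not to those of the study. By this rule no member was higher, against 0.12% of all genes, and none was lower, against 0.371%. None of the 77 member probes met this rule either, while 44 probes of the array were higher by it and 142 were lower. In single hybridizations CKS2 (hybridization 1) and INCENP (hybridization 2) passed 2-fold. With median centring in place of loess, 11 members reached 0.322 in both hybridizations (against 6.26% of all genes), 6 were 1.5-fold higher (against 1.90%) and 0 were 1.5-fold lower (against 1.56%). With the ratios of the scanner software these counts were 11 (against 7.63%), 6 (against 2.31%) and 1 (against 2.85%), and INCENP passed 2-fold in both (against 0.276%). Without a test, these shares are descriptions of 1 pair of RNAs. The shares of all genes include many dimmer genes, and shares at matched brightness were not computed.

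**Figure D1:**
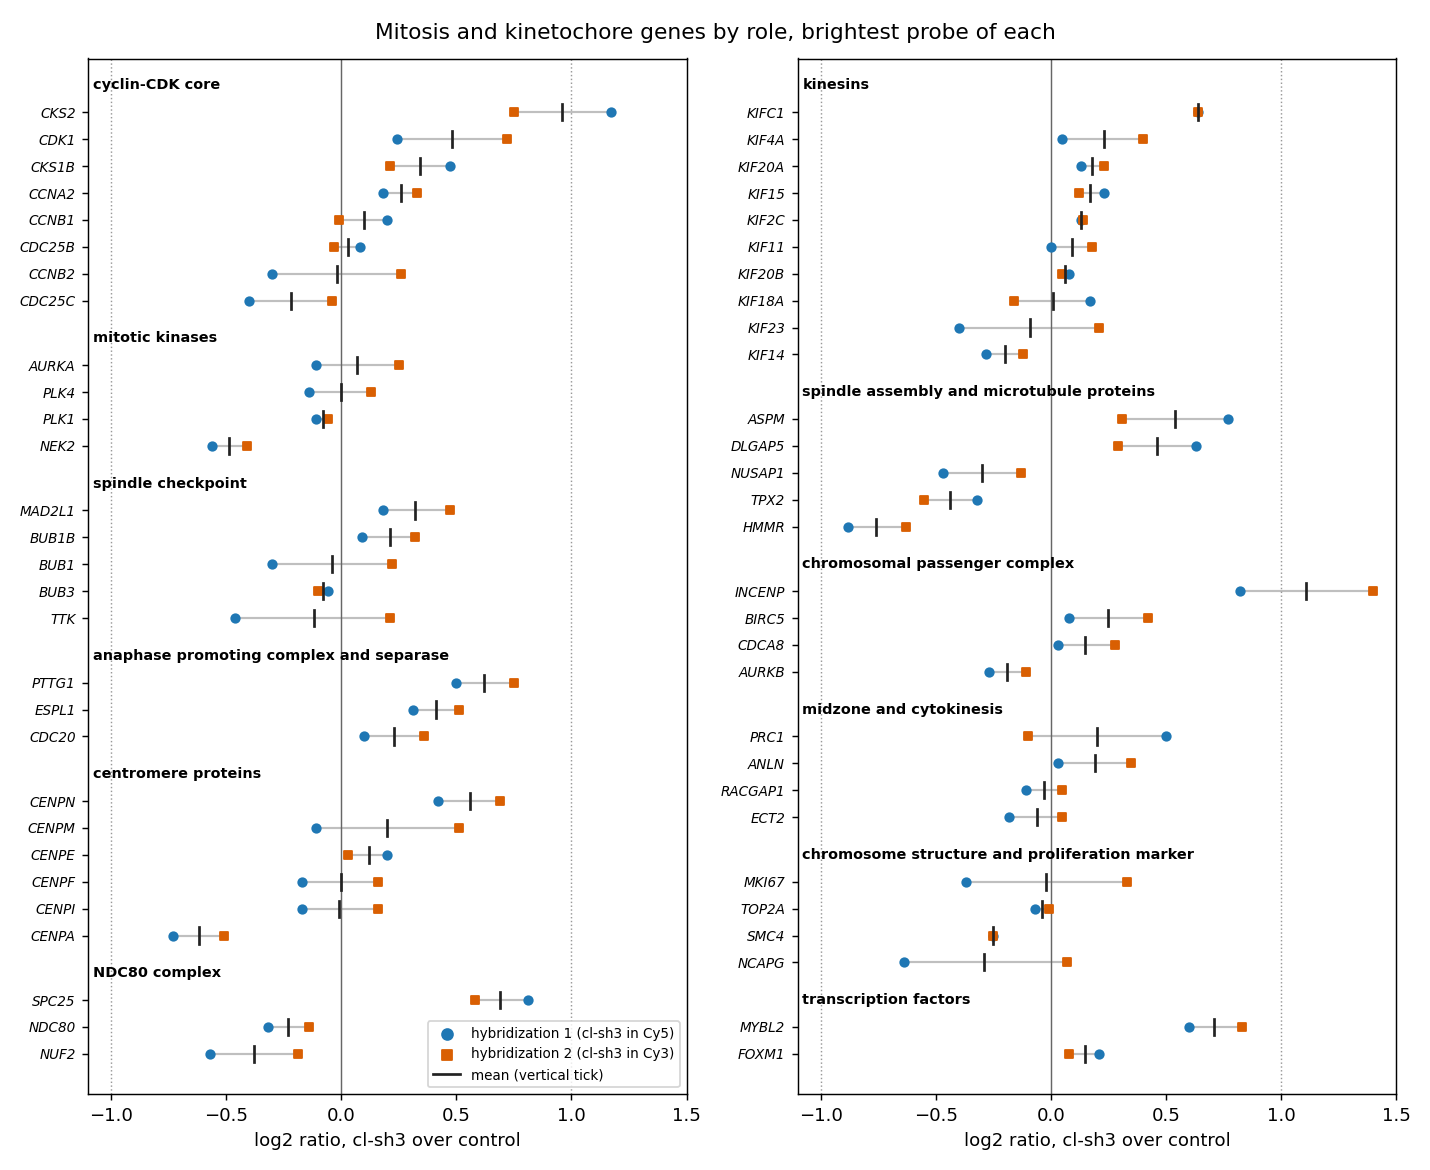
The log2 ratio of cl-sh3 over control (horizontal axis) at the brightest probe of each of the 58 members, grouped by role. Circles are hybridization 1, squares hybridization 2 and vertical ticks their mean, and the dotted lines mark a 2-fold difference, which no member passed in both hybridizations.

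The hybridizations did not give the same picture of the group. The median ratio of the members was 0.03 in hybridization 1 and 0.17 in hybridization 2, while the median of all genes was 0.03 and 0.00. The ratio was higher in hybridization 2 than in hybridization 1 for 42 members (72.4%), against 52.6% of all genes. Of the 18 members with opposite signs, 14 were below 0 in hybridization 1 and above 0 in hybridization 2. In hybridization 1 alone, 30 members were above 0 (against 55.3% of all genes), 11 of them by 0.322 or more (against 10.6%), and 10 were at -0.322 or less (against 15.4%). In hybridization 2 alone, 40 members were above 0 (against 49.5%), 18 of them by 0.322 or more (against 13.8%), and 4 were at -0.322 or less (against 10.8%). The ratios of single members differed between the hybridizations by a median of 0.25, against 0.22 over all genes. Across the 58 members, which share 1 pair of RNAs and are not independent, Pearson's r between the hybridizations was 0.71 and Spearman's rho was 0.63. The same values over all genes measured, which were dimmer, were 0.53 and 0.31. The part of the dyes in these differences was not tested.

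**Figure D2:**
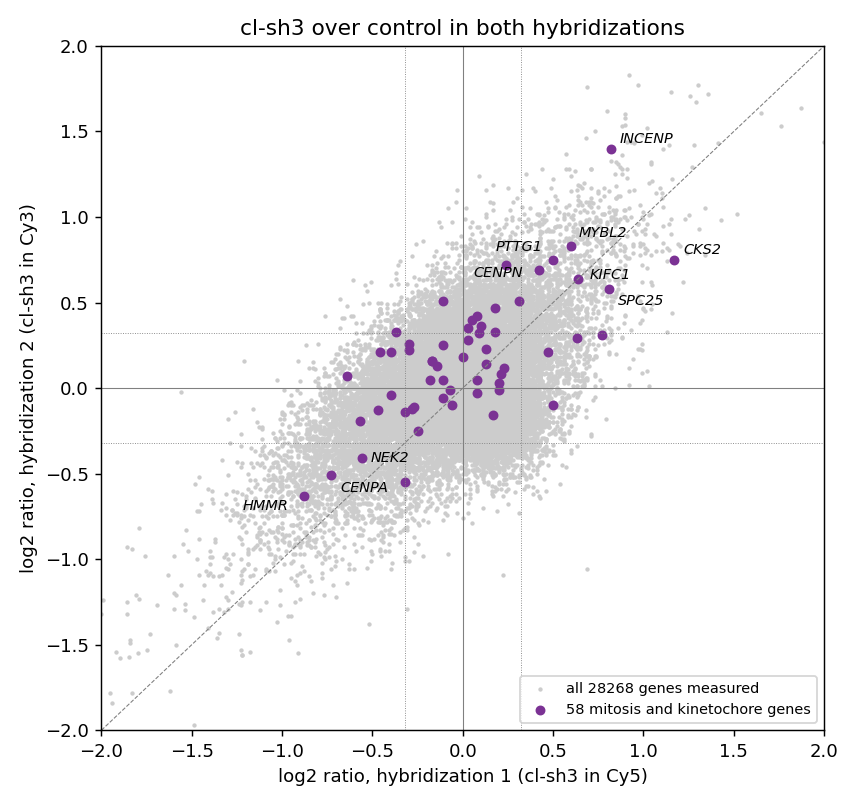
The log2 ratio of cl-sh3 over control in hybridization 1 (horizontal axis) and hybridization 2 (vertical axis) for all 28268 genes measured (grey) and the 58 members (purple), with dotted lines at 0.322 and -0.322 and a dashed line of equality. The 10 labelled members lie beyond the dotted lines in both hybridizations, 7 above and 3 below, and 24 other genes lie outside the plotted range.

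Among the 8 members of the cyclin and cyclin-dependent kinase core, the median ratio was 0.18, with 4 higher and 1 lower in both hybridizations. CKS2, a small subunit that binds cyclin-dependent kinases, was the highest of them, and its normalized log2 level was 15.57 in cl-sh3 and 14.40 in the control in hybridization 1, and 15.15 and 14.40 in hybridization 2. Its ratios were 1.17 and 0.75 (mean 0.96, 1.94-fold). CDC25C, a phosphatase that activates CDK1, was the lowest, with ratios of -0.40 and -0.04. CCNA2, CDK1 and CKS1B were higher in cl-sh3 in both hybridizations, with mean ratios between 0.26 and 0.48, whereas the B-type cyclins CCNB1 and CCNB2 and the phosphatase CDC25B had opposite signs in the hybridizations and means between -0.02 and 0.10.

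The mitotic kinases had a median ratio of -0.04, with none of 4 higher and 2 lower in both hybridizations. NEK2, a kinase of centrosome separation, had levels of 10.50 in cl-sh3 and 11.06 in the control in hybridization 1, and 10.36 and 10.77 in hybridization 2. Its ratios were -0.56 and -0.41 (mean -0.49), and at a dimmer probe -0.83 and -1.06. AURKA, the kinase of spindle poles, was the highest of this group, and its ratios of -0.11 and 0.25 had opposite signs. PLK1, the main polo-like kinase, gave -0.11 and -0.06 at its brightest probe. The ratios of PLK4, the kinase of centriole duplication, were -0.14 and 0.13.

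In the spindle checkpoint, none of 5 members reached 0.322 in either direction in both hybridizations, and the median ratio was -0.04. MAD2L1, which helps to inhibit CDC20, had the highest ratios, 0.18 and 0.47. TTK, the kinase that starts checkpoint signalling, had the lowest mean, -0.12, from ratios of -0.46 and 0.21. Of the BUB proteins, BUB1B was higher in both hybridizations (mean 0.21), BUB3 lower in both (mean -0.08), and BUB1 had opposite signs.

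At their brightest probes, all 3 measured members of the anaphase promoting complex and separase group were higher in cl-sh3 in both hybridizations, with a median of 0.41. PTTG1 is the securin that inhibits separase. Its levels were 15.50 in cl-sh3 and 15.00 in the control in hybridization 1, and 15.74 and 14.99 in hybridization 2. Its ratios were 0.50 and 0.75 (mean 0.62). ESPL1, separase itself, had a mean of 0.41 at its brightest probe, while a dimmer probe gave 0.19 and -0.22 (mean -0.02). CDC20, the activator of the complex and the lowest of the 3, had ratios of 0.10 and 0.36.

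The centromere proteins spread to both sides of 0 around a median of 0.06. CENPA, the histone variant that marks the centromere, had levels of 11.38 in cl-sh3 and 12.11 in the control in hybridization 1, and 11.46 and 11.97 in hybridization 2. It was lower in cl-sh3 in both, with ratios of -0.73 and -0.51 (mean -0.62). CENPN, which binds CENPA nucleosomes, lay at the other end, with levels of 13.40 and 12.98 in hybridization 1, 13.17 and 12.48 in hybridization 2, and ratios of 0.42 and 0.69. CENPE, a kinetochore kinesin, had a mean of 0.12, and CENPF, CENPI and CENPM had opposite signs in the hybridizations.

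The NDC80 complex, the rod that joins the kinetochore to microtubules, was divided. SPC25, of its centromere-facing end, had levels of 13.28 in cl-sh3 and 12.47 in the control in hybridization 1, and 12.96 and 12.38 in hybridization 2, and ratios of 0.81 and 0.58 (mean 0.69). The microtubule-facing subunits lay below 0 in both hybridizations, NUF2 at -0.57 and -0.19 and NDC80 at -0.32 and -0.14. The fourth subunit, SPC24, was not analysed here.

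In both hybridizations, 6 of the 10 kinesins were higher (60.0%, against 30.3% of all genes measured) and 1 was lower (10.0%, against 25.5%). The median ratio of the kinesins was 0.11. KIFC1, a minus-end-directed motor that focuses spindle poles, was the highest and the only kinesin to reach 0.322 in either direction in both hybridizations. Its levels were 11.30 in cl-sh3 and 10.66 in the control in hybridization 1, and 11.38 and 10.74 in hybridization 2, which gave a ratio of 0.64 in each. KIF14, a motor of cytokinesis, was the lowest, at -0.28 and -0.12. The other 8 had means between -0.09 and 0.23, among them KIF11, the plus-end-directed motor that separates the spindle poles, at 0.09.

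The spindle assembly and microtubule proteins had the lowest median of the role groups, -0.30, with 2 higher and 3 lower in both hybridizations. HMMR, a hyaluronan receptor that also acts at spindle poles, had the lowest mean of all members. Its levels were 12.31 in cl-sh3 and 13.20 in the control in hybridization 1, and 12.38 and 13.01 in hybridization 2. The ratios of HMMR were -0.88 and -0.63 (mean -0.76). NUSAP1 and TPX2, which bind and nucleate spindle microtubules, were also below 0 in both, with means of -0.30 and -0.44. At the brightest probes ASPM, a spindle pole protein, was the highest of the group, with ratios of 0.77 and 0.31 (mean 0.54), and DLGAP5, with its single probe, followed with a mean of 0.46. A dimmer ASPM probe gave -0.22 and 0.25, and with the mean of both probes ASPM was at 0.28, below DLGAP5.

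INCENP, the scaffold of the chromosomal passenger complex, had the highest mean of all members. Its levels were 11.39 in cl-sh3 and 10.57 in the control in hybridization 1, and 11.45 and 10.05 in hybridization 2. Levels were not normalized between the arrays, so they are compared within each hybridization only. The ratios of INCENP were 0.82 and 1.40 (mean 1.11, 2.16-fold). Its partners were nearer to 0. AURKB, the kinase of the complex, was the lowest, at -0.27 and -0.11, while survivin (BIRC5) and borealin (CDCA8) were slightly higher in both hybridizations, with means of 0.25 and 0.15.

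The midzone and cytokinesis members had a median of 0.08, and 3 of 4 had opposite signs. PRC1, which bundles antiparallel microtubules, had ratios of 0.50 and -0.10, while ANLN, an actin-binding scaffold of the cleavage furrow, was higher in both, with a mean of 0.19. ECT2, which activates RhoA at the furrow, was the lowest at its brightest probe, at -0.18 and 0.05. In the group of chromosome structure genes and the proliferation marker MKI67, every mean was below 0, with a median of -0.14 and 2 of 4 lower in both hybridizations. NCAPG, a condensin subunit, was the lowest, with ratios of -0.64 and 0.07. MKI67 was the highest of this group, with ratios of -0.37 and 0.33 that cancelled to a mean of -0.02. SMC4, another condensin subunit, gave -0.25 in each hybridization, and topoisomerase TOP2A had a mean of -0.04.

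The transcription factors that drive late cell cycle genes were both higher in cl-sh3 in both hybridizations. MYBL2 (B-Myb) had levels of 12.07 in cl-sh3 and 11.48 in the control in hybridization 1, and 12.05 and 11.22 in hybridization 2. Its ratios were 0.60 and 0.83 (mean 0.71, 1.64-fold). FOXM1 had ratios of 0.21 and 0.08 (mean 0.15).

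**Figure D3:**
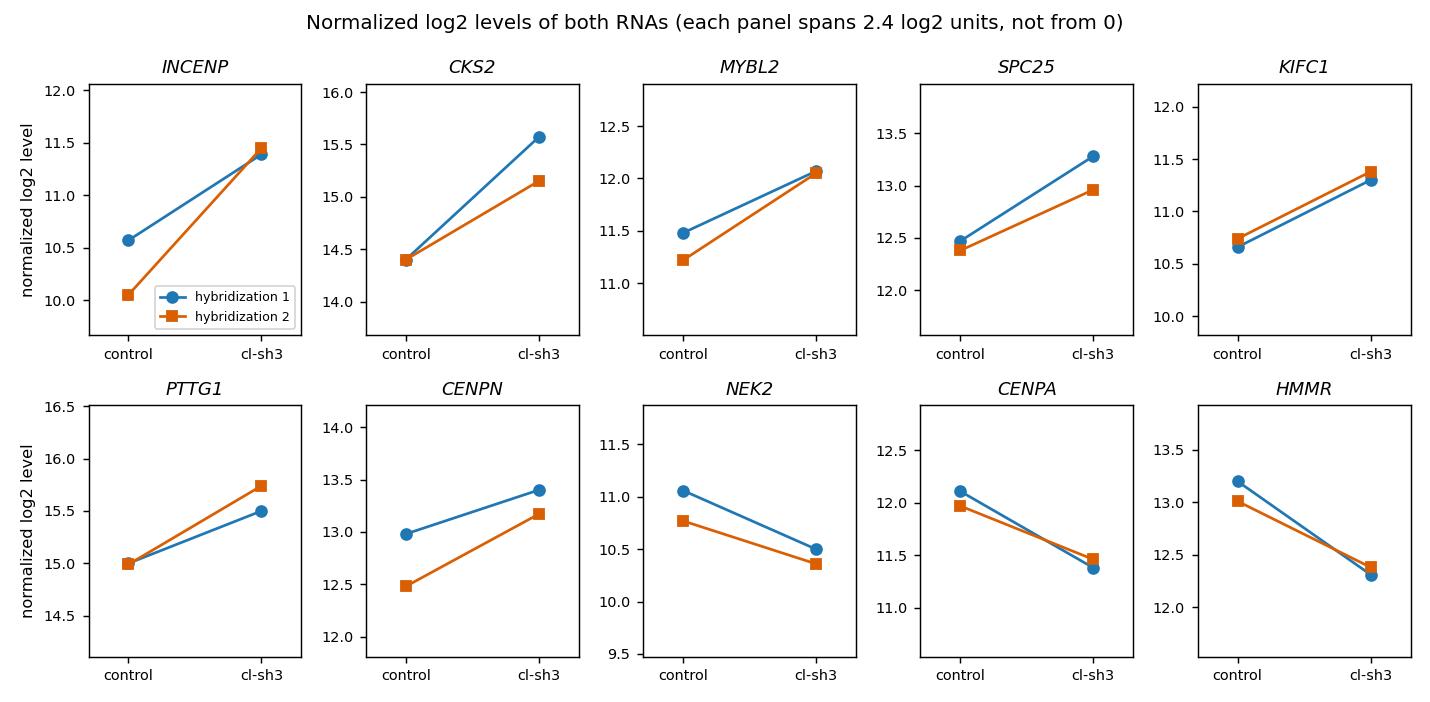
The normalized log2 level (vertical axis) in the control and in cl-sh3 for the 10 members whose log2 ratio reached 0.322 or -0.322 in both hybridizations. Circles are hybridization 1 and squares hybridization 2, each joined by a solid line. The axes do not start at 0 and each spans 2.4 log2 units. In every panel the lines slope the same way, upward for INCENP, CKS2, MYBL2, SPC25, KIFC1, PTTG1 and CENPN, and downward for NEK2, CENPA and HMMR.

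Repeated spots and probes show how far these ratios can be relied on. The probes of BIRC5, CCNA2, CDK1, CENPE and KIF20A were printed in 10 spots on each array, and the standard deviation of the log2 ratio between spots was 0.09 to 0.17. Between the hybridizations the ratios of these probes differed by 0.48 for CDK1 (0.24 and 0.72), 0.34 for BIRC5 and 0.17 for CENPE. The differences were 0.14 for CCNA2 and 0.1 for KIF20A. They are differences between averages over spots, whereas the standard deviation is that of single spots. For 14 members several probes were measured, and the mean ratios of a gene's probes had one sign in 11 of them and lay within 0.5 of each other in 10. Only for ECT2 did they differ by 1 or more. Its dimmest probe gave -1.48 and -0.95 (mean -1.22), its middle probe -0.18 and -0.30 (mean -0.24), and its brightest a mean of -0.06. PLK1 gave 0.79 and 0.24 at a dimmer probe (mean 0.52) against a mean of -0.08 at the brightest. The 4 probes of CENPN ranged from -0.02 to 0.56, the brightest being the highest, and the mean of all 4 was 0.27 (0.13 and 0.41 in the hybridizations), so CENPN no longer reached 0.322 in both. The other 44 members had 1 probe, so no second probe checked INCENP, CKS2, MYBL2, SPC25, KIFC1, PTTG1, CENPA or HMMR. The transcripts of a gene that each probe reads were not determined.

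**Figure D4:**
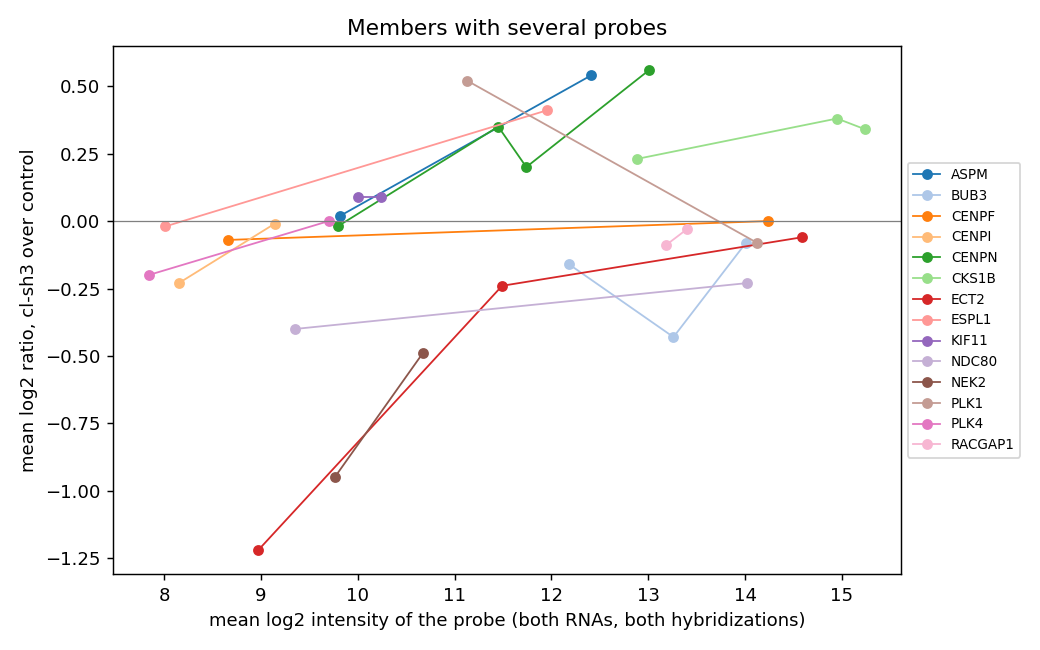
The mean log2 ratio of cl-sh3 over control (vertical axis) against the mean log2 intensity of the probe (horizontal axis) for the 14 members with several probes, with lines joining probes of one gene. The probes of ECT2 span 1.15, from -1.22 at the dimmest to -0.06 at the brightest, and those of PLK1 lie on opposite sides of 0.

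The ratios were also set beside the promoters. The 29 measured members with a CHR element had a median ratio of 0.15, with values from -0.76 to 1.11, and the 21 without had a median of 0.06, from -0.49 to 0.71. With CCAAT the median was 0.09 over 39 members, from -0.76 to 1.11, and without it 0.12 over 11, from -0.38 to 0.71. The highest and the lowest member thus both carry CHR and CCAAT, in the larger group of each pair. The 4 measured members with the RUNX motif, ANLN, CDCA8, PTTG1 and SMC4, ran from -0.25 to 0.62, with a median of 0.17, against 0.08 over the 46 without, from -0.76 to 1.11. Of the 10 members that reached 0.322 or -0.322 in both hybridizations, 5 had a CHR element (CENPA, CKS2, HMMR, INCENP and SPC25). CCAAT was in 9 of the 10, and the RUNX motif in 1, PTTG1. Among all measured members with a window, 29 had and 21 lacked CHR, 39 had and 11 lacked CCAAT, and 4 had and 46 lacked the RUNX motif.

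Genes that work with the members were compared in further lists. In both hybridizations, 30.3% of all genes measured were higher and 25.5% lower. Among 71 other mitotic genes 69 were measured, with a median of 0.17. Of these, 38 (55.1%) lay above and 11 (15.9%) below 0 in both hybridizations. At 0.322 or more in both were 12 (17.4%, against 4.81% of all genes), and at -0.322 or less 3 (4.35%, against 6.19%). Among those at least 1.5-fold higher in both were the kinetochore scaffold KNL1 (0.67 and 0.92) and the centromere protein CENPW (0.64 and 0.72). The 14 subunits of the anaphase promoting complex had a median of 0.08, with 6 higher (42.9%) and 3 lower (21.4%) in both. The 10 measured subunits of DREAM and MuvB, the complexes that repress and activate cell cycle promoters, had a median of -0.15, with 3 higher and 5 lower. The 11 alpha and beta tubulins had a median of 0.29, with 7 higher (63.6%) and 1 lower (9.09%). TUBB was the furthest, at 0.59 and 0.66.

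The genes of DNA replication and the G1/S transition, which act before mitosis, had a higher median than the mitotic members. Their median was 0.37 (0.28 and 0.45 in hybridizations 1 and 2), against 0.08 (0.03 and 0.17) for the members. Of these 47 genes, 36 were higher in both hybridizations (76.6%, against 30.3% of all genes measured) and 4 were lower (8.51%, against 25.5%). The same counts were 26 and 14 of the 58 members. At 0.322 or more in both were 15 (31.9%, against 4.81%) and at -0.322 or less none (against 6.19%), compared with 7 and 3 members. The helicase subunits MCM2 (0.72 and 0.62), MCM4 (0.69 and 0.74) and MCM5 (0.82 and 0.79) were at least 1.5-fold higher in both. The difference between the lists was not tested, because genes of 1 pair of RNAs are not replicates.

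**Figure D5:**
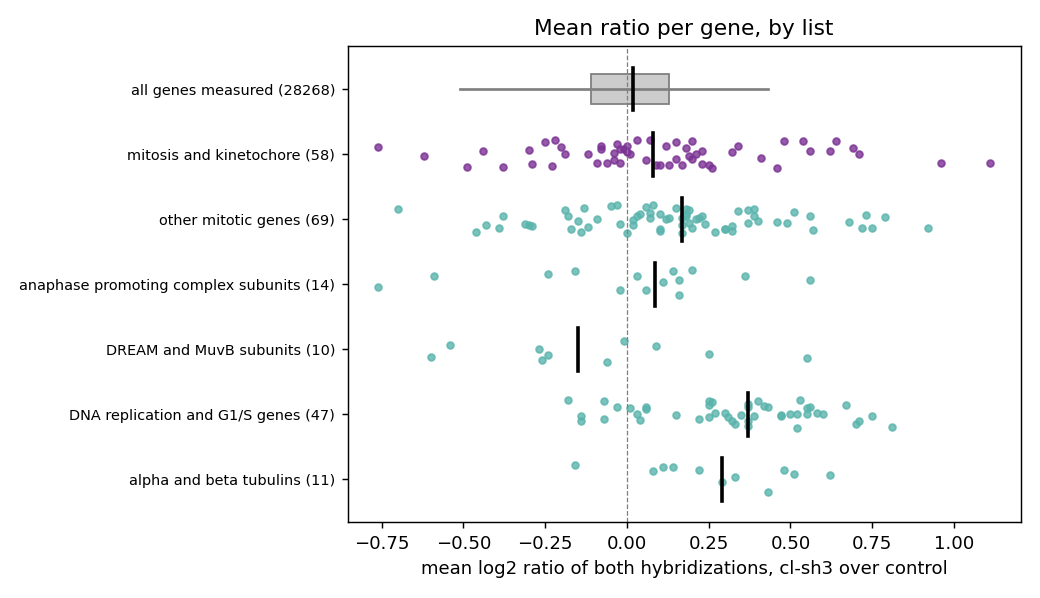
The mean log2 ratio of cl-sh3 over control (horizontal axis) of each gene in the members and in 5 related lists, with thick ticks at the medians and the number of measured genes in parentheses. For all genes measured the box spans the quartiles and the line the percentiles 5 and 95. The members are centred at 0.08 and the DNA replication and G1/S genes at 0.37.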

How the data were processed

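The authors labelled RNA of cl-sh3 and of the control clone with cyanine dyes, scanned both arrays with Agilent Feature Extraction (10.5.1.1 per the file headers, 8.5.1.1 in the submitters' processing notes) and deposited the intensity of every spot, with local backgrounds and flags. The authors also deposited a log10 ratio of Cy5 over Cy3 made by that software, and a table of the same log10 ratios. The deposited intensities were not normalized.

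Starting from median pixel signals (the plan preferred means, which the files do not give), limma 3.58.1 (R 4.3.3) was used for normexp background correction with offset 50. Control spots were removed and flagged outlier spots (153 and 144) set to missing. Loess was applied to each array, repeated spots were averaged per probe, and the ratio of cl-sh3 to control was expressed in log2 units with the sign of the dye swap reversed. A gene was represented by its brightest probe, and was kept when the same RNA carried the above-background flag in 50% or more of that probe's spots in both hybridizations. Probe accessions received gene names from RefSeq (GRCh38.p14), which held 18023 of 19228 RefSeq accessions, while the RUNX2 probe accession was named from the study. Computations outside R used Python 3.11.15, numpy 2.4.6, pandas 2.3.3 and matplotlib 3.10.9, and the normalization was tested on simulated data.

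The members, roles, lists, fold thresholds and motifs were chosen with earlier results of these data known. Genes named with values are RUNX2, members that reached a log2 ratio of 0.322 or -0.322 in both hybridizations, the highest and lowest of each role group, ECT2 for its probes, and other genes at least 1.5-fold apart, not all of which are reported here. Further members were named to account for each role group, for repeated spots or, as PLK1, after their values were seen. The alternatives were a normexp offset of 0, uncorrected backgrounds, median centring, outlier spots kept, no filter or a stricter filter on detection, the software's or the deposited ratios, each hybridization alone, and the mean of a gene's probes.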

Additional observations from a re-analysis of the deposited data

How the results depend on the processing

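No paired analysis was possible because both RNAs of the single pair were hybridized together, and the repeats are technical. Under 11 alternatives, all 110 values of the 10 members that reached 0.322 or -0.322 in both hybridizations kept their sign. Much of this was fixed in advance. These 10 members were picked for the same sign in both hybridizations, so neither hybridization alone could reverse it. The detection filters leave the ratio of a gene unchanged, and the deposited table repeats the ratios of the software. All of these members but CENPN and NEK2 had a single probe, so the mean of a gene's probes could not change them. Keeping outlier spots left their values as they were. The median ratio of the members was between 0.08 and 0.13, apart from the single hybridizations (0.03 and 0.17). With median centring in place of loess, 11 members reached 0.322 (6.26% of all genes), 6 were 1.5-fold higher (1.90%) and 0 lower (1.56%). With the ratios of the scanner software, and with the deposited table, 11 reached 0.322 (7.63% and 7.62%), 6 were 1.5-fold higher (2.31% and 2.30%) and 1 lower (2.85% and 2.83%), and 1 (INCENP) was 2-fold higher (0.276% in each). With the mean of a gene's probes, 6 reached 0.322 (4.41%), CENPN being lost, 4 reached -0.322 (6.16%) with ECT2 added, and 2 were at least 1.5-fold lower (1.88%). In hybridizations 1 and 2 alone, 30 and 40 members were higher (55.3% and 49.5% of all genes) and 28 and 18 lower (44.7% and 50.5%). Past 0.322 were 11 and 18 (10.6% and 13.8%), and past -0.322 were 10 and 4 (15.4% and 10.8%). At 1.5-fold, 7 and 7 were higher (2.50% and 4.26%) and 3 and 1 lower (6.31% and 3.02%), and at 2-fold 1 and 1 were higher (0.258% and 0.587%) and 0 and 0 lower (1.2% and 0.524%). The causes were not tested. With 1 pair of clones the precision is limited to technical error, and the normexp offset shrinks ratios of dim probes.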
